A study of Homo sapiens with 6 samples.

Results

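The 31 genes described here make cholesterol and fatty acids, control that synthesis, or move cholesterol within and out of the cell. They were chosen by function: 6 enzymes of the mevalonate pathway, 11 enzymes from squalene to cholesterol, 5 genes of SREBP control, 5 genes of fatty acid synthesis, and 4 genes of cholesterol transport and its LXR receptor. Earlier results of these data were known when the genes were chosen. Fatty acid desaturases were not included. Of the 31 genes, 30 had a row among the 35820 genes of the count table and all 30 passed the filter on low counts, which left 13965 genes to test. PMVK, the phosphomevalonate kinase, had no row under that name. Its expression was not analysed, and it entered the promoter search only.

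RNA was measured in HT1080, a human fibrosarcoma cell line, by RNA-seq of total RNA depleted of ribosomal RNA. The groups were 3 libraries of wild-type (WT) cells and 3 libraries of cells with a CRISPR knockout of TOP3B, made with a guide RNA against exon 2. TOP3B is a topoisomerase that acts on DNA and RNA, and the series text gives its effect on R-loops and transcription as the question. The knockout is the single line E2-2, so clone and genotype cannot be told apart. Both groups grew in Dulbecco's modified Eagle's medium with 10% fetal bovine serum, a lipid source. The WT cells are called HCT116 at 1 place in the series text and HT1080 in all sample labels. No label ties a library to its own culture; the p-values reflect library-to-library spread, possibly of technical origin.

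Library totals lay between 17919106 and 20475280 estimated counts. TOP3B itself had 536, 376 and 469 counts in WT and 407, 383 and 361 in the knockout, which did not pass the test (edgeR adjusted p = 0.342). An edit in an exon can leave the transcript in place, so this does not check the labels. Mesenchymal markers, 9 in the table, summed to 26180 to 27353 CPM (counts scaled to a common library size) in WT and 16153 to 17372 CPM in the knockout. Of 11 colon epithelial markers in the table, 7 stayed under 1 CPM in every library, with KRT20, CDX2 and CEACAM5 at 0. KRT8 and KRT18 of that list were over 5 CPM, and its sum was 106.4 to 118.6 CPM in WT and 109.3 to 132.2 CPM in the knockout. Of 4 adipocyte markers 3 stayed under 1 CPM, with ADIPOQ at 0. Of 8 hepatocyte markers 7 did, and the sum, mostly SERPINA1, was 2.9 to 3.3 CPM in WT and 9.81 to 11.9 CPM in the knockout. Haematopoietic markers, mostly CD68, summed to 10.2 to 15.3 and 3.78 to 13.1 CPM. The part of these differences in the results below was not tested. Knockout replicate 3 stood apart: over 6544 well-measured genes, its log2 differences from knockout replicates 1 and 2 had SDs of 0.623 and 0.599, while those 2 libraries differed from each other with an SD of 0.238. Results that rest on it are given below with and without it.

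Cells make cholesterol from acetyl-CoA through mevalonate, farnesyl diphosphate, squalene and lanosterol, and the same acetyl-CoA feeds fatty acid synthesis. SREBP transcription factors, encoded by SREBF1 and SREBF2, raise the transcription of most of these enzymes. When sterols are plentiful, INSIG proteins hold the SREBP escort SCAP in the endoplasmic reticulum; when sterols are scarce, SCAP carries SREBP to the Golgi, where it is cleaved and released to the nucleus. LXR receptors, of which NR1H2 encodes LXR-beta, sense oxidised sterols and raise the transcription of the cholesterol exporter gene ABCA1.

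Stretches of 3 promoters are printed because they belong to SREBF2 and INSIG1, control genes of the pathway, and to ABCA1, the gene with the lowest fitted value. Each starts 250 bases before the RefSeq transcript start (GRCh38.p14) and ends before the gene's first GENCODE exon, so that no annotated exon base of that gene is shown; the stretch of SREBF2 lies in an exon of SREBF2-AS1 on the other strand. They lie at chr22:41832855-41833078 on the plus strand, chr7:155297628-155297775 on the plus strand and chr9:104928238-104928405 on the minus strand. Capitals mark matches on either strand to the sterol regulatory element, the E-box CACGTG, the NF-Y box CCAAT and the GC box GGGCGG; the sterol regulatory element is the run of 10 capitals in SREBF2.
SREBF2: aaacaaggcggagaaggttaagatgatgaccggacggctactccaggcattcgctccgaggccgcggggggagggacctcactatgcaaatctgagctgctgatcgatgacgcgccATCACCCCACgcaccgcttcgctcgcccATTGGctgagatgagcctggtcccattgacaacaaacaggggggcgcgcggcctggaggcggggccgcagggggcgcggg
INSIG1: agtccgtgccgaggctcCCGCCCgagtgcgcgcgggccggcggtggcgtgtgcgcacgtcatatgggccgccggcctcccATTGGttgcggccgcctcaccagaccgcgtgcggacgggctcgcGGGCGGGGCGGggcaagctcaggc
ABCA1: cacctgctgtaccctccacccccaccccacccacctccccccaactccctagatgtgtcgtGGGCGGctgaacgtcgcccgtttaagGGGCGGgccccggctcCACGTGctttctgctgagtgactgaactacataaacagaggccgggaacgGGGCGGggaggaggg

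RefSeq windows of 250 bases before the start were found for 28 of the 31 genes, in 39 windows; FASN, FDFT1 and SQLE had no entry. In all, 11 patterns were searched on both strands, and a gene counted when any of its windows matched. An earlier search had used 10 patterns on windows that ran past the start; the window was then shortened, the LXR repeat lengthened, and the printed promoters and capital patterns picked after matches and expression values had been seen. The shares are therefore descriptions only. The sterol regulatory element was searched as 1 exact run of 10 letters, the run of capitals printed for SREBF2. That exact run was matched in SREBF2, 134 to 125 bases before the start, and in 0.0439% of all 27305 genes with a window. Elements with other letters were not counted in this share, so it does not give the number of genes that carry such an element. A looser form, TCAC and CCAC with 1 free base between, was matched at the same place in SREBF2 and in no other of the 28 (1.09% of all genes), and the core TCACCCC, which overlaps both, in SREBF2, MVK and INSIG2 (5.79%).

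The NF-Y box was matched in 20 of the 28 genes (71.4%), against 37% of all genes. The GC box was matched in 27 (96.4%), with NSDHL the exception, against 46.2% of all genes. All genes here are those with a window, not limited to tested genes. They were not matched to the 28 genes in base composition or number of windows. The E-box was matched in INSIG1 (55 to 50 bases before the start, past the end of the printed stretch), ABCA1, SC5D and SCAP, 14.3% of the 28 genes, against 7.73%. Its form flanked by T and A, which overlaps it, was matched in INSIG1 (1.04% of all genes). None of the 28 held AGGTCA repeated after 4 free bases (0.0183% of all genes), GGTCA repeated after 4 free bases (0.0586%), TGAC followed directly by GTCA (2.03%) or TGAGTCA (5.19%). A match describes letters in the window and does not show a bound site. A pattern without a match does not show that a site is absent, because sites with other letters were not counted.

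Of the cholesterol and fatty acid genes, NR1H2 fell 1.33-fold in the TOP3B knockout, and the other 29 genes did not pass the test. That is 3.33% of the 30 genes, against 7.84% of all 13965 genes tested (1095 genes at a Benjamini-Hochberg adjusted p under 0.05 by edgeR's quasi-likelihood fit, 3.21% being higher and 4.63% lower). The fitted log2 fold changes, knockout over WT, were above 0 in 16 genes and below 0 in 14, with a median of 0.03 against 0.05 for all genes. Among all genes tested 7499 lay above 0 and 6466 below. An unadjusted p under 0.05 was reached by 5 of the 30 (16.7%), against 24.7% of all genes. The 3 knockout libraries lay entirely on 1 side of the 3 WT libraries in 7 genes (23.3%), 4 lower and 3 higher, against 33.6% of all genes (17.1% lower and 16.5% higher). In each of these counts, which share genes and libraries, the share of the 30 genes was below that of all genes. Without knockout replicate 3 the share called was not below: 13.3% of the 30 genes passed, against 13.2% of all genes. The lower shares are therefore a description of these counts and were not tested.

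**Figure D1:**
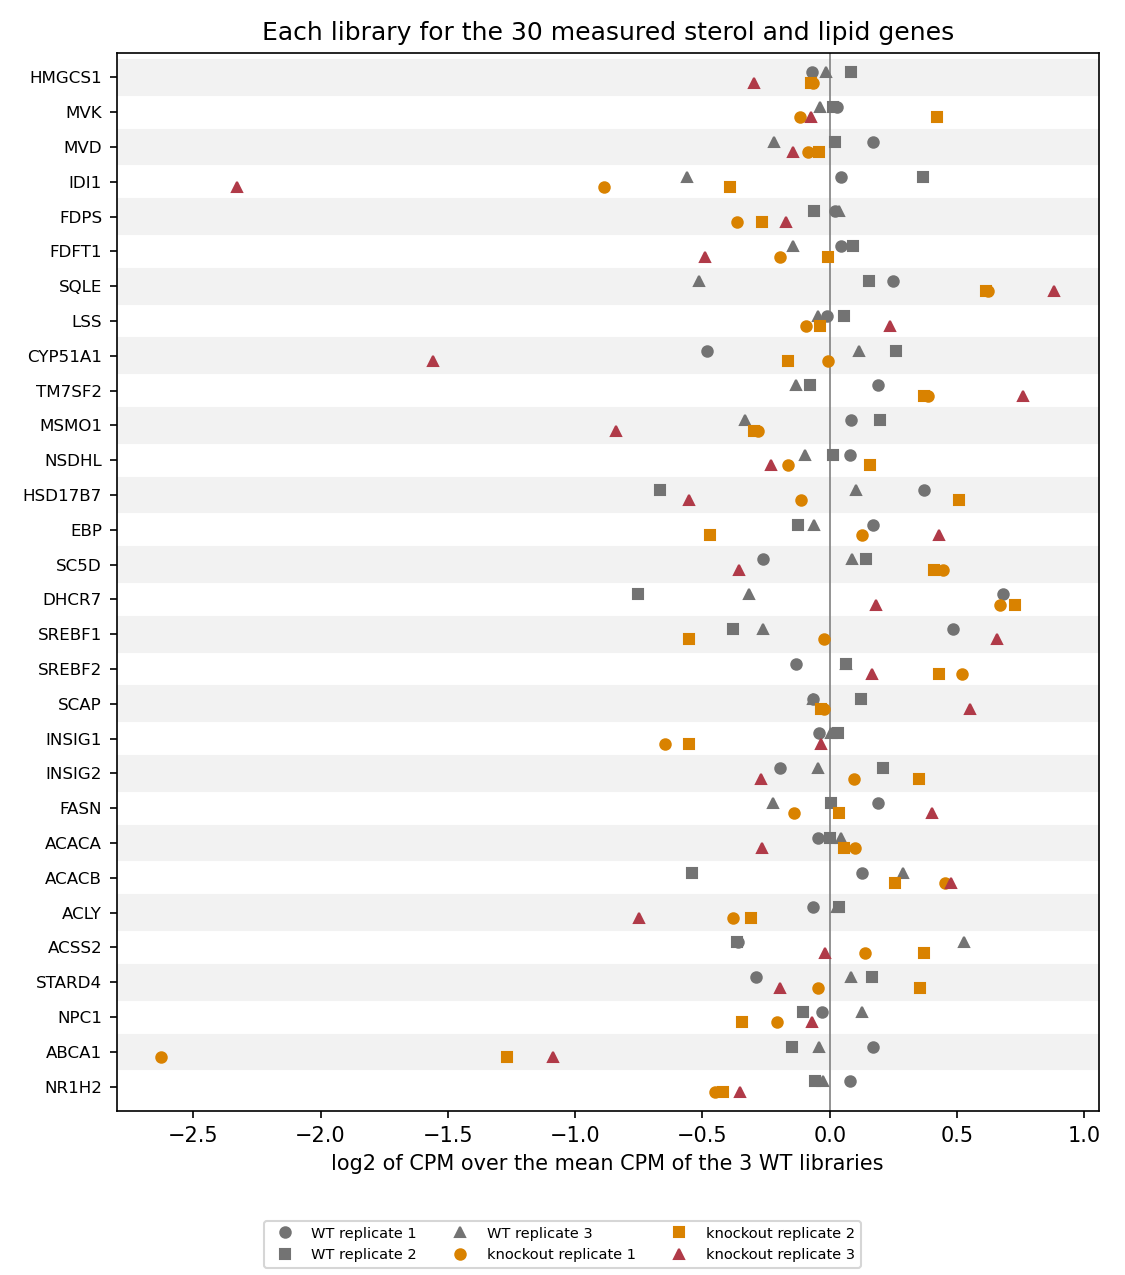
Each point is 1 library; the x axis is the log2 of CPM over the mean CPM of the 3 WT libraries, with WT in grey, knockout replicates 1 and 2 in orange and knockout replicate 3 in red. In NR1H2, ABCA1, ACLY and FDPS all 3 knockout points lie below all WT points, and in SQLE, TM7SF2 and SREBF2 all lie above them.

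The 95% interval of the fold change stayed inside a 2-fold change in either direction in 24 of the 30 genes (80.0%), against 50.2% of all genes tested. The exceptions were IDI1, SQLE, CYP51A1, HSD17B7, DHCR7 and ABCA1, whose intervals each reached beyond 2-fold. The intervals are per gene and are not adjusted for the number of genes. The share inside 2-fold also depends on their width, and the median SE was 0.196 in the 30 genes and 0.25 in all genes.

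**Figure D2:**
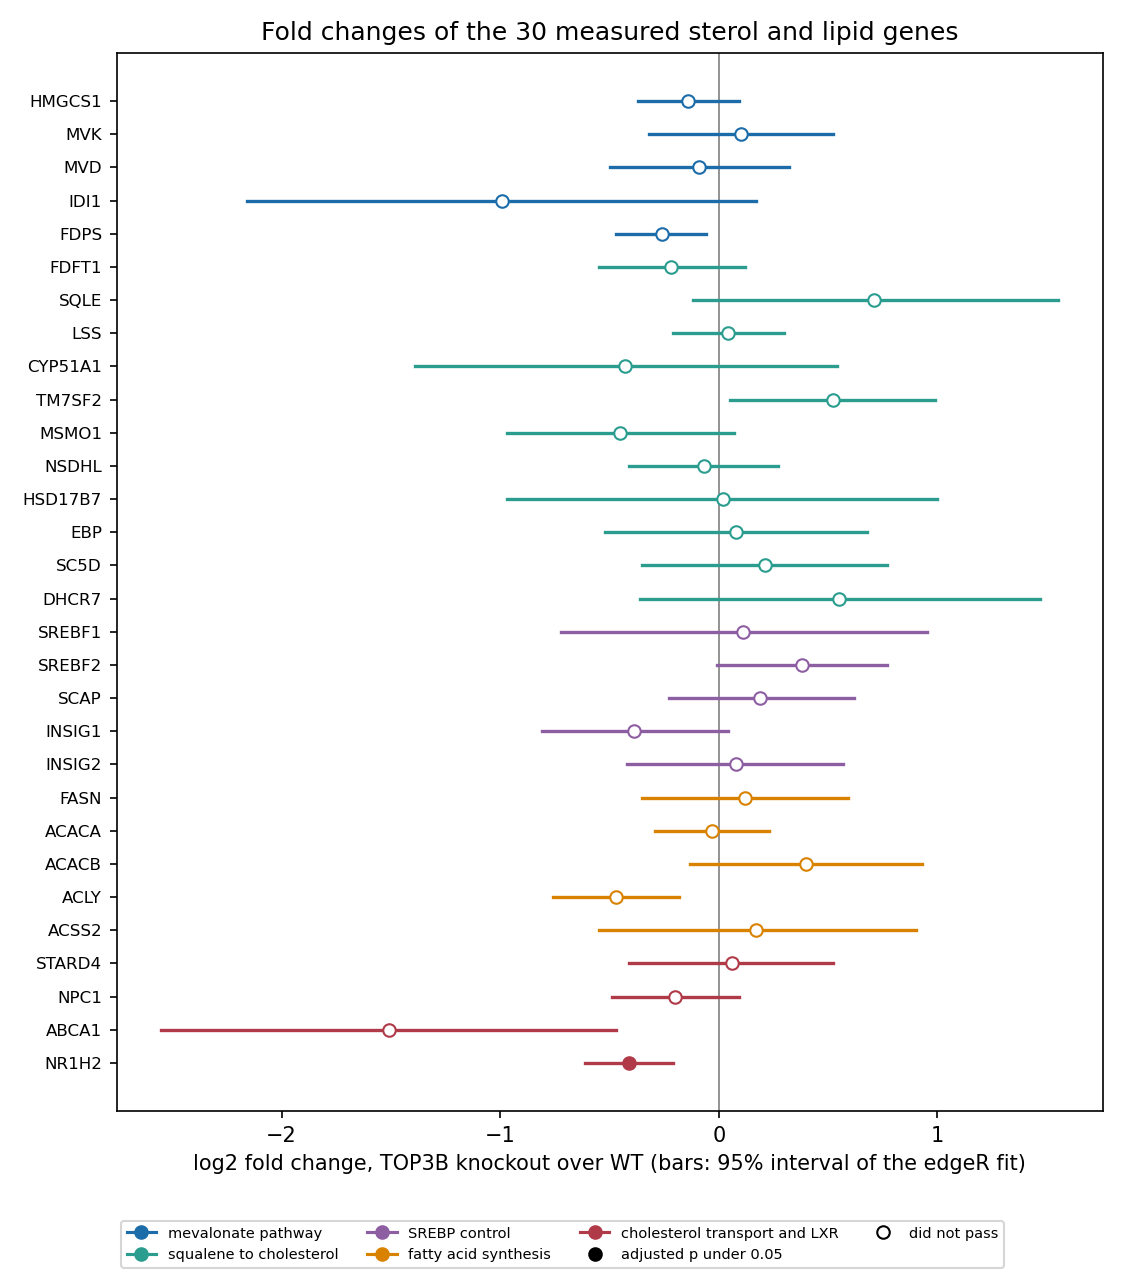
Points are fitted log2 fold changes of 30 genes, knockout over WT, coloured by role, and bars are 95% intervals from the edgeR fit. NR1H2 (filled) is the gene that passed at an adjusted p of 0.05; the widest intervals belong to IDI1 and ABCA1.

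NR1H2, the gene of the oxysterol receptor LXR-beta, stood at 213, 193.5 and 197.5 CPM in WT replicates 1 to 3 and at 147, 150.5 and 158 CPM in knockout replicates 1 to 3. The libraries within each group lay close together and the groups did not overlap. Its mean fell from 201 ± 10.3 to 152 ± 5.39 CPM (SD, n = 3 each), a log2 fold change of -0.41 ± 0.08 (SE; 95% interval -0.61 to -0.21; edgeR quasi-likelihood test, adjusted p = 0.0346). In RNA from whole cultures, fewer cells that express a gene and less of its RNA per cell cannot be told apart. The call was kept without knockout replicate 3 and lost when any of the other libraries was left out, with a log2 fold change between -0.38 and -0.44 and an adjusted p up to 0.123. With all libraries it was also lost with limma-trend on log2 RPKM plus 1 or 0.1 (adjusted p = 0.0636 and 0.0664), with library size alone (0.0646) and without a filter on low counts (0.0547). In GENCODE v29 the gene spans chr19:50329653-50382982 on the plus strand (GRCh38), and no other tested gene overlaps it. The 886 tested genes of chromosome 19 had a median log2 fold change of 0.14, on the other side of 0.

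ABCA1, a membrane transporter that exports cholesterol from the cell, was low throughout. It stood at 3.42, 2.74 and 2.95 CPM in WT and at 0.492, 1.26 and 1.43 CPM in the knockout, from 60, 54 and 60 against 10, 25 and 28 counts. The groups did not overlap, and knockout replicate 1 was the lowest library. The log2 fold change of -1.51 ± 0.44 (SE; 95% interval -2.55 to -0.47) had an edgeR adjusted p of 0.0879 and did not pass, whereas DESeq2 called the gene (adjusted p = 0.0296). Over all alternatives the adjusted p lay between 0.0296 and 0.224.

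The other transport genes gave no call. NPC1, which moves cholesterol out of lysosomes, was at 70.4 ± 5.86 CPM in WT and 61.2 ± 5.78 CPM in the knockout (SD, n = 3 each). STARD4, a sterol carrier of the cytosol, was at 34.7 ± 5.61 and 36.1 ± 7.35 CPM. Their log2 fold changes were -0.20 ± 0.12 and 0.06 ± 0.20 (SE), and in both genes the groups overlapped.

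The 5 genes of SREBP control also gave no call with all libraries. Their median was 0.11 on the log2 scale; it was -0.04 without knockout replicate 3, 0.29 without knockout replicate 2, 0.19 without WT replicate 2, 0.18 without knockout replicate 1 and 0.05 without WT replicate 3. INSIG1, a target of SREBP that retains SCAP, stood at 46.9, 49.4 and 48.5 CPM in WT and at 30.8, 32.9 and 47.1 CPM in the knockout. Knockout replicates 1 and 2 lay below WT, and replicate 3 lay within the WT range. With all libraries the log2 fold change was -0.39 ± 0.18 (SE; edgeR adjusted p = 0.242), and without knockout replicate 3 it was -0.61 (adjusted p = 0.014; the highest of any alternative was 0.447). SREBF1, which encodes the SREBP that favours fatty acid genes, stood at 94.4, 51.9 and 56.3 CPM in WT and at 66.5, 46.1 and 106 CPM in the knockout. Here WT replicate 1 and knockout replicate 3 were high and the groups overlapped. Its log2 fold change was 0.11 ± 0.35 (SE) with all libraries, -0.27 without knockout replicate 3 and 0.43 without WT replicate 1.

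SREBF2, which encodes the SREBP that favours cholesterol genes, stood at 11.7, 13.4 and 13.4 CPM in WT and at 18.4, 17.3 and 14.4 CPM in the knockout. All knockout libraries lay above all WT libraries, with replicate 3 closest to WT. The log2 fold change of 0.38 ± 0.16 (SE; 95% interval -0.01 to 0.77) did not pass (edgeR adjusted p = 0.212). SCAP, the SREBP escort, was at 83.0, 94.6 and 82.9 CPM in WT and at 85.4, 84.9 and 127 CPM in the knockout, so that only replicate 3 left the WT range. INSIG2, the relative of INSIG1, was at 13.9, 18.4 and 15.4 CPM in WT and at 17.0, 20.3 and 13.2 CPM in the knockout, with overlapping groups. Their log2 fold changes were 0.19 ± 0.18 for SCAP and 0.08 ± 0.21 for INSIG2 (SE).

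**Figure D3:**
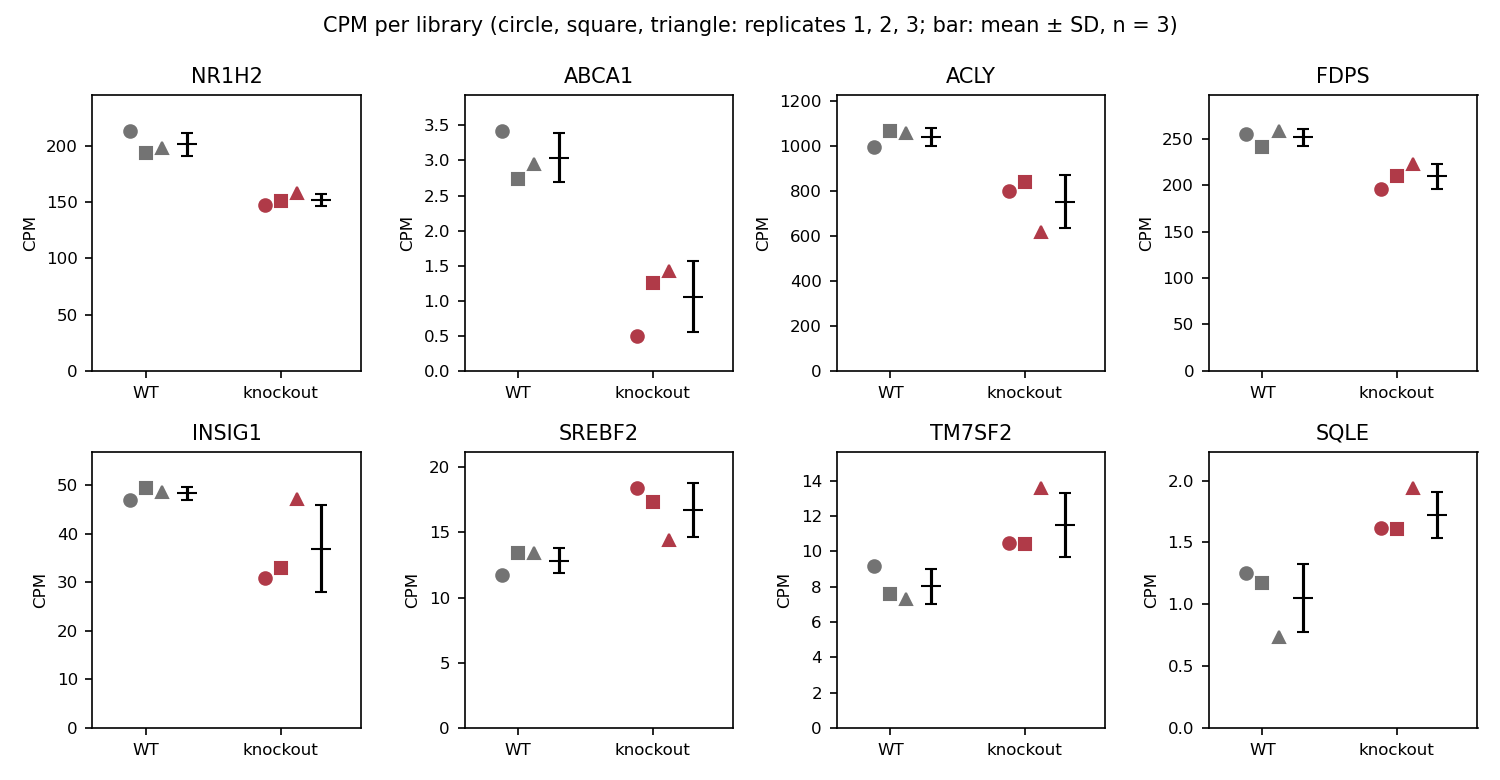
Panels give CPM per library on axes from 0 for 8 genes, with WT in grey, the knockout in red, and the mean ± SD (n = 3) beside each group. The groups do not overlap in NR1H2, ABCA1, ACLY, FDPS, SREBF2, TM7SF2 and SQLE; in INSIG1 knockout replicate 3 (47.1 CPM) lies among the WT values.

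In the mevalonate pathway none of the 5 measured enzymes passed, and their median was -0.14, or -0.08 without knockout replicate 3. FDPS, the farnesyl diphosphate synthase, stood at 255.5, 241 and 258 CPM in WT and at 196, 209 and 223 CPM in the knockout. The groups did not overlap, and the difference was small beside the values: a log2 fold change of -0.26 ± 0.09 (SE; 95% interval -0.47 to -0.06; edgeR adjusted p = 0.115). Without knockout replicate 3 it was -0.32 and passed (adjusted p = 0.0258; the highest of any alternative was 0.284). IDI1, the isomerase that makes dimethylallyl diphosphate, had the second lowest fitted value of the 30 genes at -0.99 ± 0.49 (SE). It stood at 9.28, 11.6 and 6.10 CPM in WT and at 4.87, 6.85 and 1.79 CPM in the knockout. The groups overlapped and knockout replicate 3 was the lowest library, and the value was -0.62 without it and -1.43 without knockout replicate 2. HMGCS1, the HMG-CoA synthase at the head of the pathway, was at 274 ± 14.8 and 248 ± 22.1 CPM (SD, n = 3 each). MVK and MVD, the mevalonate kinase and the mevalonate diphosphate decarboxylase, had log2 fold changes of 0.10 ± 0.18 and -0.09 ± 0.17 (SE).

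From squalene to cholesterol none of the 11 enzymes passed, and their median was 0.04. TM7SF2, a sterol reductase, stood at 9.17, 7.61 and 7.33 CPM in WT and at 10.5, 10.4 and 13.6 CPM in the knockout. SQLE, the squalene epoxidase and a rate-limiting enzyme, stood at 1.25, 1.17 and 0.738 CPM in WT and at 1.62, 1.61 and 1.94 CPM in the knockout, from 22, 23 and 15 against 33, 32 and 38 counts. In both genes all knockout libraries lay above all WT libraries, and neither passed: the log2 fold changes were 0.52 ± 0.20 and 0.71 ± 0.35 (SE), with edgeR adjusted p of 0.167 and 0.265. TM7SF2 shares its strand and part of its span with VPS51, so its reads could have been divided with that gene. ACACA overlaps HMGB1P24 on its own strand, and MVK, FDPS, SREBF1, SREBF2, ACSS2, STARD4 and NPC1 each overlap a tested gene on the other strand. These overlaps are of whole gene spans, introns included, and exons were not compared. Where exons on opposite strands overlap, telling their reads apart can depend on the use of strand in counting. The 745 tested genes of chromosome 11, where TM7SF2, DHCR7 and SC5D lie, had a median log2 fold change of 0.24; the part of the chromosome in these values was not tested.

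The next 5 sterol enzymes did not pass either. LSS, the lanosterol synthase, was at 221 ± 8.07 and 228 ± 28.7 CPM (SD, n = 3 each), and NSDHL, a dehydrogenase that helps remove methyl groups, at 44.8 ± 2.78 and 42.7 ± 6.29 CPM. FDFT1, the squalene synthase, was at 146 ± 12.3 and 126 ± 20.7 CPM. EBP, a sterol isomerase, was at 12.5 ± 1.38 and 13.2 ± 3.96 CPM, and HSD17B7, a ketosteroid reductase, at 2.33 ± 0.789 and 2.36 ± 0.884 CPM. In all 5 genes the groups overlapped.

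The last 4 sterol enzymes also did not pass. CYP51A1, the lanosterol demethylase, stood at 16.2, 27.1 and 24.5 CPM in WT and at 22.5, 20.2 and 7.68 CPM in the knockout. SC5D, a sterol desaturase, stood at 41.3, 54.6 and 52.5 CPM in WT and at 67.4, 65.7 and 38.6 CPM in the knockout. MSMO1, a methylsterol oxidase, stood at 22.9, 24.8 and 17.2 CPM in WT and at 17.8, 17.6 and 12.1 CPM in the knockout. Knockout replicate 3 was the lowest of the 6 libraries in all 3 of these genes, and for SC5D the other knockout libraries were the highest. Without it the log2 fold change of CYP51A1 was -0.09 in place of -0.43, and that of SC5D 0.42 in place of 0.21, with neither passing. Other libraries moved these values the other way: CYP51A1 was at -0.70 without knockout replicate 1, and SC5D at 0.07 without knockout replicate 1, 0.08 without WT replicate 1 and 0.10 without knockout replicate 2. DHCR7, the reductase of the last step, stood at 12.6, 4.66 and 6.30 CPM in WT and at 12.5, 13.0 and 8.90 CPM in the knockout. WT replicate 1 was high among the WT libraries, and the log2 fold change of 0.55 ± 0.39 (SE) was 1.06 without it and 0.29 without WT replicate 2.

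Among the 5 genes of fatty acid synthesis ACLY, which makes cytosolic acetyl-CoA from citrate, was the most abundant in counts and had the lowest fitted value. It stood at 993, 1066 and 1059 CPM in WT and at 799, 838 and 618 CPM in the knockout. The groups did not overlap, and knockout replicate 3 was the lowest. The log2 fold change was -0.47 ± 0.12 (SE; 95% interval -0.76 to -0.18; edgeR adjusted p = 0.0677). DESeq2 called it (adjusted p = 0.0182), and so did edgeR without knockout replicate 3, at a smaller log2 fold change of -0.35 (adjusted p = 0.00991); over the alternatives the adjusted p reached 0.195.

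The other 4 genes of this role did not pass. ACACA, the acetyl-CoA carboxylase of the cytosol, was at 392 ± 12.1 and 385 ± 50.9 CPM (SD, n = 3 each), and its 95% interval ran from -0.29 to 0.23. FASN, the fatty acid synthase, was at 17.6 ± 2.50 and 19.2 ± 3.76 CPM. ACACB, the carboxylase of the mitochondrial surface, was at 24.3 ± 6.76 and 32.1 ± 2.62 CPM with a log2 fold change of 0.40 ± 0.22 (SE), which was 0.19 without WT replicate 2. ACSS2, which makes acetyl-CoA from acetate, was at 6.07 ± 2.33 and 6.84 ± 0.943 CPM. The groups overlapped in all 4 genes, and the median over the 5 genes was 0.12, between 0.01 and 0.19 with 1 library left out.

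Knockout replicate 3 held many of the extreme values. It was the lowest of the 6 libraries in 10 of the 30 genes (33.3%) and the highest in 8 (26.7%). Over all genes tested the shares were 27.3% and 29.1%. Among the 5 measured mevalonate enzymes it was lowest in 2 (HMGCS1 and IDI1) and highest in 0. Among the 11 enzymes from squalene to cholesterol it was lowest in 5 (FDFT1, CYP51A1, MSMO1, NSDHL and SC5D). It was highest in 4 of those 11 (SQLE, LSS, TM7SF2 and EBP). The median log2 deviation of the 30 genes from the WT mean was -0.08, -0.02 and -0.16 in knockout replicates 1 to 3, against 0.01, 0.02 and 0.01 for all genes. In WT replicates 1 to 3 the same median of the 30 genes was 0.04, 0.02 and -0.04. Each of these is a median within 1 library and need not match the median fitted log2 fold change, which was 0.03. Without knockout replicate 3, 4 of the 30 genes passed (13.3%), all lower: NR1H2, INSIG1, ACLY and FDPS. In that comparison 13.2% of all genes passed in either direction, so the share was near that of genes in general. The share of all genes that passed as lower was not counted there, so the shared direction of the 4 has no background. No gene of the 30 passed when any of the other 5 libraries was left out, where 1.94%, 1.55% and 1.78% of all genes did without WT replicates 1, 2 and 3, and 2.71% and 2.5% without knockout replicates 1 and 2. With other tools and settings the count was 3 of the 30 with DESeq2 (13.3% of all genes). It was 1 with limma-voom (7.98%), DESeq2 size factors (8.09%), upper quartile scaling (7.96%), a filter of 1 CPM (9.01%) and robust dispersion (7.7%). It was 0 with limma-trend on log2 RPKM plus 1 (7.74%) or 0.1 (7.51%), with library size alone (7.99%) and without a filter (4.02%).

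**Figure D4:**
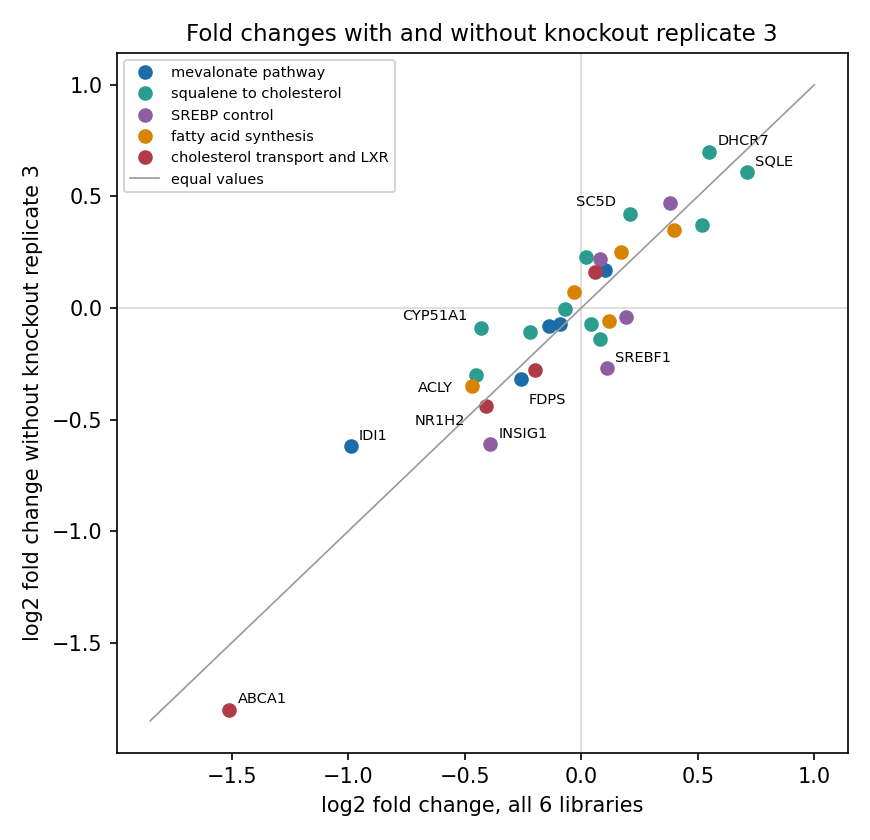
Each point is 1 of the 30 genes; the x axis is the log2 fold change with all 6 libraries and the y axis that without knockout replicate 3, with a line of equal values. INSIG1 moved from -0.39 to -0.61, CYP51A1 from -0.43 to -0.09, and SREBF1 changed sign.

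Other genes of the same pathways, in 4 lists of 90 genes, were read beside these. Of 73 that could be tested, DGAT2 rose, GGPS1 fell and 71 did not pass, where 7.84% of all genes passed. The fitted values were above 0 in 27 and below 0 in 46, with a median of -0.09. Over all genes tested 7499 were above 0 and 6466 below, with a median of 0.05. The groups did not overlap in 19 of the 73, where they did not in 33.6% of all genes. Without knockout replicate 3, 9 of these genes passed (13.2% of all genes), and 8 with DESeq2 (13.3%). The count was 0 without WT replicate 2, WT replicate 3 or knockout replicate 2, and 1 without WT replicate 1 or knockout replicate 1. GGPS1 makes geranylgeranyl diphosphate from the product of FDPS. It stood at 45.8, 54.8 and 55.9 CPM in WT and at 31.8, 33.5 and 30.3 CPM in the knockout, a 1.64-fold fall with no overlap (log2 fold change -0.71 ± 0.13 SE, edgeR adjusted p = 0.0229). DGAT2, which makes triglyceride for storage, stood at 5.98, 4.92 and 3.54 CPM in WT and at 9.64, 11.7 and 15.5 CPM in the knockout, a 2.55-fold rise with no overlap (log2 fold change 1.35 ± 0.28 SE, edgeR adjusted p = 0.035). With each library left out in turn, GGPS1 passed in 2 of 6 fits and DGAT2 in 1, with adjusted p up to 0.106 and 0.127.

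By list, 1 of 11 other isoprenoid and sterol genes passed, 1 of 22 other genes of fatty acid synthesis and storage, and none of 14 genes of SREBP processing and sterol degradation or of 26 of sterol transport and LXR. An unadjusted p under 0.05 was reached by 2, 7, 1 and 6 genes of these lists in that order, the called genes included, where 24.7% of all genes reached it.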

How the data were processed

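Total RNA of 6 HT1080 libraries, 3 WT and 3 TOP3B knockout, was depleted of ribosomal RNA and sequenced in pairs with a kit that marks strand, per the labels' protocols. For every gene the deposited tables hold an estimated count, as a whole number, and an RPKM. Salmon 1.10.1 and the build hg19 are named in the submitters' processing notes without a stated role; the annotation and the use of strand in counting are not given in the sources used here. One entry named differently in the 2 tables was left out.

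Counts were filtered with filterByExpr, scaled by TMM and tested by quasi-likelihood in edgeR 4.0.16 (R 4.3.3). P-values were adjusted by Benjamini-Hochberg over 13965 genes and called under 0.05. CPM values use TMM-scaled library sizes. Standard errors come from the F statistic, and 95% intervals from its degrees of freedom.

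Groups follow the genotype label. WT replicate numbers are those of the labels; knockout numbers follow accession order. Alternatives were DESeq2 1.42.0, limma 3.58.1 (voom, or trend on log2 RPKM plus 1 or 0.1), other scalings and filters, robust dispersion and each library left out. Full values are given for genes that passed, for SREBP control genes and for genes whose groups did not overlap; other genes shown per library were chosen after their values were seen. The genes, lists and tests were chosen with earlier results of these data known. Promoter letters are from RefSeq on GRCh38.p14, and gene spans from GENCODE v29 on GRCh38; no hg19 position is used.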

Additional observations from a re-analysis of the deposited data

How the results depend on the processing

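The number of all genes called was 1095, 2064 with DESeq2 and between 223 and 1899 with 1 library left out. Of the 30 genes, 1 passed, 3 with DESeq2 (NR1H2, ACLY and ABCA1), 0 with limma-trend on log2 RPKM at either pseudocount, 0 with library size alone, 0 without a filter on low counts, and between 0 and 4 with 1 library left out. The median log2 fold change of 0.03 lay between -0.11 and 0.06 with 1 library left out, and the cause was not tested. Leaving out 1 library gave ranges of -0.10 to 0.19 for MVK, -0.07 to 0.11 for LSS, -0.31 to 0.23 for HSD17B7, -0.14 to 0.29 for EBP, -0.27 to 0.43 for SREBF1, -0.04 to 0.29 for SCAP, -0.08 to 0.22 for INSIG2, -0.06 to 0.23 for FASN, -0.10 to 0.07 for ACACA and -0.12 to 0.16 for STARD4. Of the 30 genes, 20 kept their sign in all 16 alternatives. The others had not passed, and no value of changed sign passed. The sign changed without knockout replicate 3 for LSS, EBP, SREBF1, SCAP, FASN and ACACA, without knockout replicate 2 for MVK, HSD17B7, INSIG2 and STARD4 (-0.08 for INSIG2), and without a WT replicate for HSD17B7 (-0.23), SREBF1 (-0.04 and -0.00056), INSIG2 (-0.02) and STARD4 (-0.08). ACACA was at 0.02 with limma-trend at either pseudocount and with library size alone, and at 0.0052 with upper quartile scaling. No paired analysis was possible because the knockout labels carry no replicate numbers. SQLE, ABCA1 and HSD17B7 had 10 to 66 counts per library, which limits their precision.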

Other observations

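The deposited RPKM values divide by a length that is not given. Dividing count by RPKM gives a length close to the average genomic extent of the GENCODE v29 transcripts, introns included. Across 12704 genes, not independent of each other, Spearman's rho was 0.983, and the length lay within 3% of it in 19 of the 30 genes. On this scale of RPKM per genomic span the WT means were highest for ACLY at 32.1, FDPS at 28.8 and HMGCS1 at 19.2, and lowest for SQLE at 0.0800 and ABCA1 at 0.0336. FASN was at 4.12 and ACACA at 4.29, though their implied lengths were 4190 and 89534 bases. The order of these levels therefore depends on the length used, and an order by messenger RNA length was not tested.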
